A study of Drosophila melanogaster
Mus musculus with 6 samples.

Results

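The chromatin of cells expressing K36M histone H3.1 was described by comparing the 2 histone marks mapped in them, H3K36me2 and H3K27me3, over the same 10 kb bins of the mouse genome. All rows of the deposited table that were 10 kb wide and had signal in at least 1 library were taken, which gave 248945 bins of 253926 rows. The cells were C3H10T1/2, a line of mesenchymal progenitors from mouse embryos of the C3H strain, at passages 10 to 15. The K36M cells stably expressed FLAG-HA-tagged H3.1 in which methionine replaces lysine 36; the WT cells stably expressed the same tagged H3.1 without that change. In each line H3K36me2 and H3K27me3 were immunoprecipitated from micrococcal nuclease-digested chromatin to which Drosophila S2 chromatin had been added as an external reference. There was 1 library per mark and line, so no replicate error could be computed, no test between libraries was made and no p-value is given. Both lines carry a tagged H3.1 transgene beside their own histone genes, and the labels do not say whether a line is a clone or a pool.

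H3K36me2 is placed on nucleosomes mainly by the NSD family of methyltransferases and spreads over broad stretches in and between genes. H3K27me3 is placed by Polycomb repressive complex 2, which silences developmental genes, and the same enzyme works poorly on a histone tail that already carries H3K36 methylation. The methionine of K36M histone traps H3K36 methyltransferases, so that the mark is lost from other histones too. H3K27me3 also covers the inactive X chromosome of female mammalian cells. The number and state of X chromosomes in these cells is not given in the labels.

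The 248945 bins held 50022100 H3K36me2 reads and 29115433 H3K27me3 reads in K36M cells, a median of 79 and 99 reads per bin, and the 95% counting half-width at that median was 22.1% and 19.7%. Values are scaled reads per bin, that is, reads multiplied by the library factor of the authors. Since 2 antibodies share no unit, marks were compared as relative levels, a bin's value divided by the mean of its own library, and these, like all ranks below, do not depend on the library factor. A bin is called rich in a mark if it was in the top 10% of that library. By that rule 10.0% of bins were rich in H3K36me2 and 10.1% in H3K27me3 in K36M cells, ties included. For H3K36me2 the lowest rich bin had 45.3 scaled reads and the highest other bin 45.2; for H3K27me3 these were 65.5 and 65.2. Intervals in parentheses after shares are exact binomial 95% intervals over bins, as if bins were independent. Neighbouring bins were not: in K36M cells bins 10 kb apart had a rank correlation of 0.77 for H3K36me2 and 0.78 for H3K27me3. The share intervals are therefore likely too narrow. Those after folds come from read counts and cover counting error alone. Since molecules were not tagged, PCR copies may make the fold intervals too narrow. Neither kind covers replicate error. With the factors of the authors, mean H3K36me2 was 15.7 scaled reads per bin in K36M cells and 148 in WT cells, and mean H3K27me3 was 34.5 in K36M cells and 13.7 in WT cells.

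The pair of marks in K36M cells had very different shapes. H3K36me2 was close to flat over most of the genome and high in a small remainder: 67.0% of bins lay under 0.5 of the library mean, the median bin was at 0.393 of it, and the 10% of bins with most reads held 52.0% of all reads. H3K27me3 was spread more evenly, with 26.8% of bins under 0.5 of the mean, a median relative level of 0.846, and 24.7% of reads in the top 10%. The 90th percentile was 7.35 times the median for H3K36me2 and 2.24 times for H3K27me3. In WT cells these were 3.54 times for H3K36me2 and 6.13 times for H3K27me3, so the order of the marks was the opposite one. The middle of the H3K36me2 distribution was also narrow in K36M cells, with a 75th percentile 2.18 times the 25th, against 6.39 times in WT cells.

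**Figure D1:**
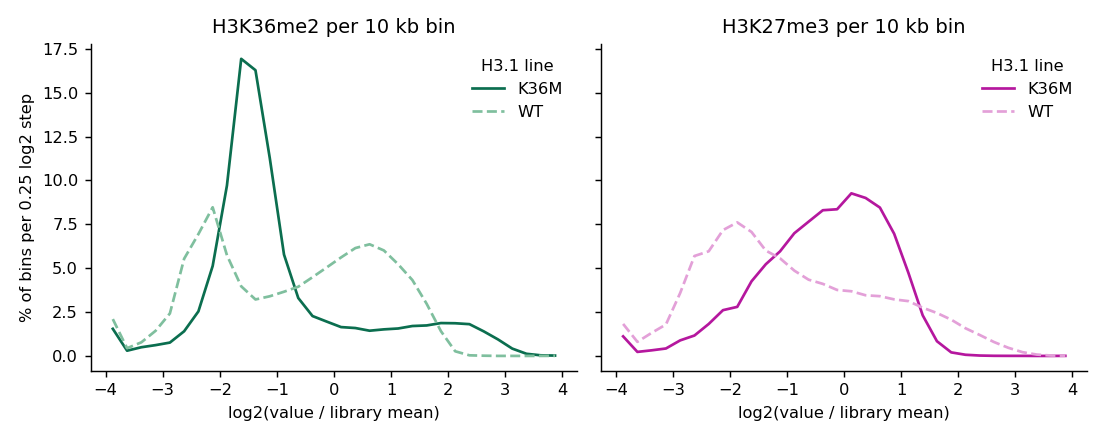
Share of 10 kb bins (vertical axis, % per 0.25 step) by log2 of value over library mean (horizontal axis) for H3K36me2 (left) and H3K27me3 (right) in K36M cells (solid) and WT cells (dashed); the end steps hold all bins beyond them. In K36M cells H3K36me2 forms a peak of 16.9% of bins in the step centred at -1.62 with a long upper shoulder, while H3K27me3 has a broad peak near the mean.

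Where residual H3K36me2 was high, H3K27me3 was low. In the highest 20th of bins by H3K36me2, with a median of 93.1 scaled reads, median H3K27me3 was 9.44 scaled reads (interquartile range 7.08 to 13.3). In the 20th below it the medians were 57.7 for H3K36me2 and 12.1 for H3K27me3. In the fourteenth 20th, where median H3K36me2 was 7.96, H3K27me3 reached its highest median, 50.7 scaled reads (36.7 to 66.4). H3K27me3 was low again in the lowest 20th, at 7.97 scaled reads with H3K36me2 at 1.79. The relation was therefore a hump, and it was read in 2 pieces, at a division chosen after its shape was seen. In the upper 30% of bins by H3K36me2, Spearman's rho between the marks was -0.68 (from -0.78 to -0.37 over the 19 autosomes and X, negative on 20 of 20). In the lower 70% rho was 0.57 (0.39 to 0.69, negative on 0 of 20). Over all bins the opposing pieces gave a rho of 0.06, whose sign turned when bins with few reads in all libraries were left out (-0.070), on a log scale (Pearson's r -0.19) and after removal of the 1000 kb local mean (-0.34).

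The lower piece moved with the read level of all 4 libraries. Between the second and the twelfth 20th of K36M H3K36me2, median H3K36me2 climbed from 3.28 to 6.71 scaled reads in K36M cells while median H3K27me3 climbed from 17.1 to 46.0. In the same bins WT H3K36me2 climbed from 26.7 to 117 scaled reads and WT H3K27me3 from 4.14 to 14.3. Input was not analysed here, and the part of general read coverage in the positive relation was not tested. In WT cells, ranked by their own H3K36me2, the hump lay lower in the ranking, with a peak of 1.40 times the library mean in the eighth and ninth 20ths. In the highest 20th H3K27me3 was at 0.274 of the mean in K36M cells, ranked by K36M H3K36me2, and at 0.405 in WT cells, ranked by WT H3K36me2.

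**Figure D2:**
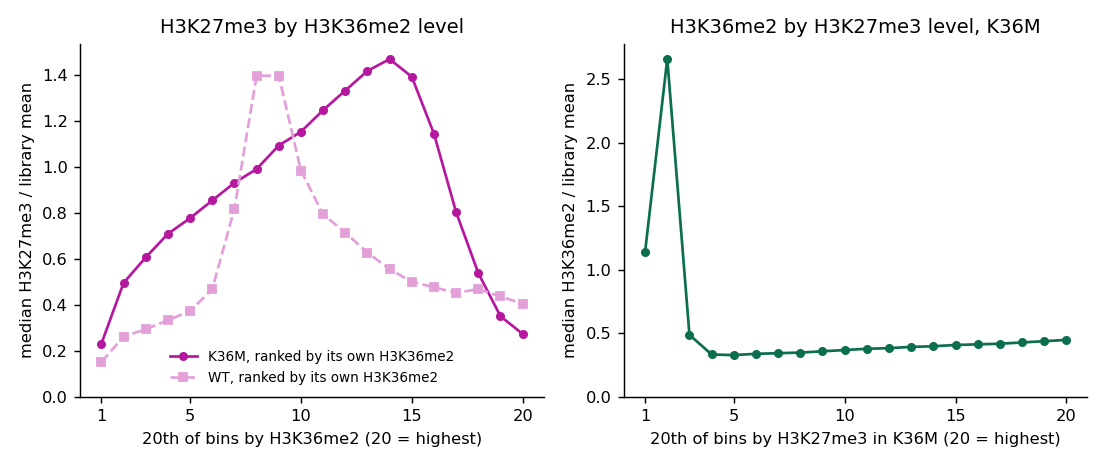
Left: median H3K27me3 as a multiple of the library mean over 20ths of bins ranked by H3K36me2 of the same line, K36M (solid, circles) and WT (dashed, squares). Right: median H3K36me2 over 20ths of bins ranked by H3K27me3, K36M only; H3K36me2 reaches 2.66 times the mean in the second-lowest 20th of H3K27me3 and stays between 0.328 and 0.488 from the third up.

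Read the other way, high H3K36me2 was found mainly in the bins poorest in H3K27me3. From the fifth 20th of H3K27me3 up, the median of H3K36me2 did not fall further, but its upper part did. Among bins in the second-lowest 20th of H3K27me3, 47.9% were H3K36me2-rich, against 0.787% in the highest 20th and 10.0% of all bins. From the fifth 20th to the highest, median H3K36me2 went from 5.15 to 7.02 scaled reads, all near the genome median of 6.16. H3K27me3-rich bins had a median of 6.94 scaled reads of H3K36me2, against 6.08 in all other bins.

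The poorest 10% of bins in H3K27me3 were divided into 2 kinds at the mean of the H3K36me2 library. In 13338 of these 24010 bins (55.6%) H3K36me2 was at or above that mean, with a median of 69.97 scaled reads. Over all bins even the 75th percentile of H3K36me2 was below it, at 0.662 of the mean. Of the first kind, 10472 were H3K36me2-rich, which is 43.6% of the 24010, against 10.0% of all bins. The other 10672 bins (44.4%) had little of either mark: median H3K36me2 was 1.87 and median H3K27me3 5.90 scaled reads in K36M cells, and the WT medians were 14.6 and 1.74. These bins held a median of 24 H3K36me2 reads and 20 H3K27me3 reads in K36M cells, and were low in all 4 libraries. X held 10.8% of this second kind and 0.135% of the first, and 6.24% of all bins.

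Bins rich in both marks were nearly missing in K36M cells. Of 24912 H3K36me2-rich bins, 161 were also H3K27me3-rich, a share of 0.646% (0.551% to 0.754%), where 10.1% of all bins were H3K27me3-rich. In WT cells the count by the same rule was 107 of 24896, 0.430% (0.352% to 0.519%). Median H3K27me3 was 10.3 scaled reads in H3K36me2-rich bins, from a median of 35 reads, against 31.9 in all other bins, 3.09-fold lower in the rich bins. It lay below the genome median of 29.2 in 93.0% of H3K36me2-rich bins and in the lowest 10% of bins in 42.0% of them. On the grid of deciles, the cell of highest H3K36me2 and lowest H3K27me3 held 4.33 times the bins of an even spread in K36M cells and 0.27 times in WT cells. The cell of highest H3K36me2 and highest H3K27me3 held 0.06 times in K36M cells and 0.04 times in WT cells. Few bins were thus rich in both marks in either line, and in K36M cells the top of H3K36me2 was mostly below the H3K27me3 median. In WT cells the top decile of H3K36me2 was most frequent in the sixth decile of H3K27me3, at 2.28 times. With rich defined as the top 5% of bins, 0.530% of H3K36me2-rich bins were H3K27me3-rich, against 5.05% of all bins, and with the top 20% it was 5.44%, against 20.0%.

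**Figure D3:**
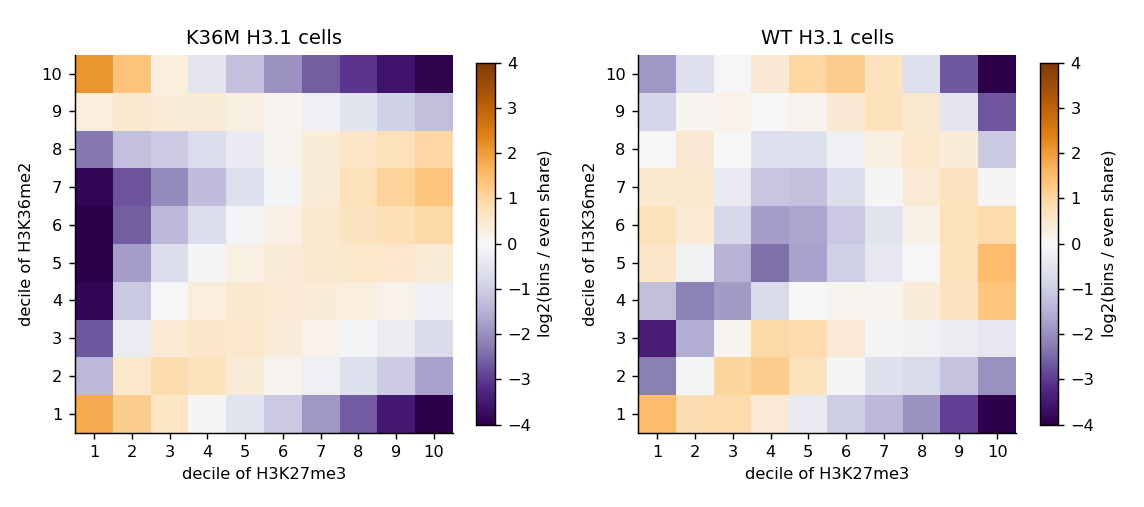
Bins in each pair of H3K36me2 decile (vertical) and H3K27me3 decile (horizontal) as log2 of their number over an even spread, for K36M cells (left) and WT cells (right), with colours ending at -4. In K36M cells the upper left corner is full (4.33 times the even share) and the upper right corner nearly empty (0.06 times).

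The exceptions were mostly isolated bins and a few stretches with many reads in every library. The 161 bins formed 112 runs, of which 85 were a single bin. X, with 6.24% of all bins, held 52 of them (32.3%). The autosomes, with 231965 of the 248945 bins, held 102 (63.4%). Chromosome 8 had 17 among its 12156 bins, chromosome 1 had 14 among 18536 and chromosome 13 had 11 among 11279. The chromosome 8 count includes the runs of 7 and 4 bins named below. The longest run lay on chromosome 11 at 3020001 to 3100000 (mm9 here and below), with 210 scaled reads of H3K36me2 and 324 of H3K27me3 in K36M cells and 2524 and 336 in WT cells. The next, on chromosome 8 at 19970001 to 20040000, had 209 and 295 in K36M cells and 561 and 95.7 in WT cells. A neighbouring run at 19860001 to 19900000 had 271 and 199 in K36M cells, and 528 and 53.4 in WT cells. On chromosome 9 at 3000001 to 3040000 the values were 1618 and 2529 in K36M cells, and 23335 and 745 in WT cells. The highest bin of both marks in K36M cells was the same, on chromosome 2 at 98500001 to 98510000, where H3K36me2 was 3387 times and H3K27me3 2241 times its library mean; the WT libraries stood at 6417 and 1672 times. Altogether 22 bins exceeded 5 times the mean in all 4 libraries, a level that by itself makes a bin rich in both marks. They held 1.87% of H3K36me2 reads and 1.23% of H3K27me3 reads in K36M cells. Input was not used to correct these stretches.

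For a measure with no fixed class size, bins were called leaning to a mark if the relative levels differed at least 2-fold on the scale log2((H3K36me2 + 0.1) / (H3K27me3 + 0.1)). In K36M cells 40176 bins leaned to H3K36me2 (16.1% of all bins) and 117443 to H3K27me3 (47.2%). In WT cells the shares were 34.7% and 24.1%. The split in K36M cells depends on the divisor. With values divided by the library median in place of the mean, 55383 bins leaned to H3K36me2 and 29659 to H3K27me3. The H3K36me2-leaning bins held 62.1% of H3K36me2 reads and 6.64% of H3K27me3 reads. Their medians were 54.7 scaled reads of H3K36me2 and 11.8 of H3K27me3, against 5.77 and 46.9 in the H3K27me3-leaning bins.

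Bins that leaned to H3K36me2 in K36M cells were nearly all bins that did so in WT cells. Of the 40176, 36381 (90.6%) leaned to H3K36me2 in WT cells and 427 (1.06%) to H3K27me3, where 34.7% and 24.1% of all bins did so. Those that leaned to H3K27me3 in K36M cells came from all 3 WT classes, with 44.0% leaning to H3K27me3, 17.5% to H3K36me2 and 38.5% to neither. Conversely, of the bins that leaned to H3K36me2 in WT cells, 42.1% still did so in K36M cells. Another 23.8% leaned to H3K27me3 there and 34.1% to neither. Of all bins, 16.1%, 47.2% and 36.7% were in these K36M classes. These shares were computed with the library mean as divisor and not with the median, on which the class sizes depend. Residual H3K36me2 did not mark the strongest WT sites. Only 680 of 24912 H3K36me2-rich bins (2.73%) were also rich in H3K36me2 in WT cells, where 24896 of all 248945 bins were. The 680 made up 0.273% of all bins, against 1.00% if the lines were independent. Of the 24912, 71.2% came from the fifth to seventh deciles of WT H3K36me2. What the 24912 bins shared was low H3K27me3 in WT cells as well, with a median of 2.29 scaled reads, against 6.87 in other bins. Of them, 74.3% were in the lowest 2 deciles of WT H3K27me3. Each decile holds about the same number of bins.

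Residual H3K36me2 formed discrete runs. The 24912 rich bins made 7145 runs of adjacent bins, of which 1782 spanned at least 50 kb, 411 at least 100 kb and 31 at least 200 kb, and 57.4% of rich bins lay in runs of 50 kb or more. The longer runs had the higher H3K36me2, with a median of 54.8 scaled reads in single bins, 77.5 in runs of 50 to 90 kb and 89.2 in runs of 200 kb or more. H3K27me3 in the same bins was 13.3, 10.0 and 10.6 scaled reads, low at every length.

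The longest H3K36me2-rich run, on chromosome 16 at 24450001 to 25000000, covered 550 kb. Over it H3K36me2 averaged 93.8 scaled reads per bin (45.3 to 154) and H3K27me3 19.9 (9.44 to 38.4) in K36M cells, and 275 and 2.55 in WT cells. Its relative level was 10.4-fold (10.1 to 10.8) higher for H3K36me2 than for H3K27me3. On chromosome 13 at 45720001 to 46060000, H3K36me2 averaged 80.1 and H3K27me3 13.2 in K36M cells, 13.4-fold apart as relative levels. A 330 kb run on chromosome 5 at 48370001 to 48700000 had 95.5 and 7.71, 27.2-fold apart. Chromosome 15 held a pair of the longest runs. That at 63910001 to 64220000 had 116 scaled reads of H3K36me2 and 7.65 of H3K27me3, and that at 52890001 to 53180000 had 77.0 and 20.3. On chromosome 9 at 70060001 to 70350000 the means were 85.5 and 8.18. H3K27me3 was thus under its genome median of 29.2 on average in all 6 runs, and it was 1.73 to 2.55 scaled reads there in WT cells.

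Of the 6 H3K36me2-rich runs with the highest mean, 4 were poor in H3K27me3 to a similar degree. On chromosome 16 at 52250001 to 52450000, H3K36me2 averaged 177 scaled reads and H3K27me3 8.38, 46.5-fold apart (42.8 to 50.5) as relative levels, and no bin of the 200 kb exceeded 12.4 scaled reads of H3K27me3. On chromosome 1 at 52230001 to 52290000 the means were 177 and 7.82, 49.7-fold apart (42.5 to 58.5). Chromosome 13 at 112210001 to 112280000 had 161 and 7.25, and chromosome 19 at 32830001 to 32900000 had 159 and 7.21. In WT cells H3K36me2 averaged 342 scaled reads in the chromosome 16 run, 149 in that on chromosome 1, 137 on chromosome 13 and 156 on chromosome 19. With the factors of the authors, H3K36me2 was thus lower in K36M cells in the chromosome 16 run only. In the runs on chromosomes 1, 13 and 19 it was not reduced. All these runs were picked by their K36M level, which favours a high value against WT cells. WT H3K27me3 was 1.71 to 2.93 in these 4 runs. The other pair of the 6 was unlike them. The highest mean was that of the chromosome 8 run at 19970001 to 20040000 described above, which was high in all libraries. On chromosome 1 at 33780001 to 33880000, H3K36me2 averaged 189 and H3K27me3 28.2, but H3K27me3 ranged from 6.49 to 131 between its bins.

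H3K27me3-rich bins were more scattered. The 25223 rich bins made 12221 runs, of which 7075 were a single bin and 995 spanned 50 kb or more, and 30.1% of rich bins lay in such longer runs, against 57.4% for H3K36me2. The H3K27me3 threshold fell in a denser part of its distribution: 7.71% of bins lay within 10% of it, at 222 reads and a counting half-width of 13.2%, against 2.03% of bins, 581 reads and 8.13% for H3K36me2. Allowing a gap of 1 bin gave 1745 runs of 50 kb or more for H3K27me3 and 2024 for H3K36me2. In WT cells, H3K27me3-rich bins made 1447 runs of 50 kb or more, holding 51.9% of rich bins. Without a threshold, the rank correlation between bins 10 kb apart was 0.77 for H3K36me2 and 0.78 for H3K27me3 in K36M cells. At 100 kb it was 0.55 for H3K36me2 and 0.41 for H3K27me3, and at 1000 kb 0.23 and 0.18.

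The longest H3K27me3-rich run lay on X at 49720001 to 50170000 and covered 450 kb. There H3K36me2 averaged 5.74 scaled reads and H3K27me3 91.6 in K36M cells, a relative level 7.24-fold (6.97 to 7.52) higher for H3K27me3, and the WT means were 42.1 and 69.1. On chromosome 15 at 102670001 to 102980000 the means were 8.04 and 141 in K36M cells and 124 and 150 in WT cells. A further run on X at 54310001 to 54610000 had 8.53 and 96.8 in K36M cells and 66.7 and 54.3 in WT cells. Chromosome 14 at 33720001 to 34000000 had 6.61 and 91.2 in K36M cells, and chromosome 12 at 104120001 to 104380000 had 6.63 and 92.2. WT H3K27me3 was 68.5 scaled reads in the chromosome 14 run and 51.2 in the chromosome 12 run. The run on chromosome 9 at 47340001 to 47640000 was alone among the 6 in having little H3K27me3 in WT cells, 5.69 scaled reads, against 96.1 in K36M cells. Its H3K36me2 was 5.13 in K36M cells and 26.9 in WT cells, low in both lines against genome medians of 6.16 and 96.0. H3K36me2 was therefore between 5.13 and 8.53 scaled reads in all 6 of the longest runs in K36M cells.

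The 6 H3K27me3-rich runs with the highest mean had more H3K36me2 than the 6 longest. Those on chromosome 11 at 3010001 to 3100000 and on chromosome 8 at 19960001 to 20040000 and 19850001 to 19950000 overlapped the stretches high in all libraries, with H3K36me2 at 8.30 to 12.0 times its mean. On chromosome 5, the runs at 14920001 to 15060000 and 15110001 to 15220000 had 190 and 172 scaled reads of H3K27me3 with H3K36me2 at 26.0 and 20.6. On chromosome 12 at 89490001 to 89540000 H3K27me3 averaged 169 and H3K36me2 32.9. H3K36me2 was 1.32 to 2.10 times its library mean in these last 3 runs, and H3K27me3 was 4.89 to 5.52 times its mean.

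At the edges of residual H3K36me2 runs the marks changed within 1 to 2 bins and in opposite directions. Over the 3564 edges of the 1782 runs of 50 kb or more, median H3K36me2 was 69.1 scaled reads in the first bin inside, against 23.7 in the first bin outside and 12.2 in the second. H3K27me3 had medians of 11.2 in the first bin inside, 26.6 in the first outside and 33.9 in the second. Log2 levels at edges, here and below, are log2(relative level + 0.1), which makes steps near the floor smaller. Over up to 5 bins on each side, mean log2 H3K27me3 was -1.25 inside and -0.08 outside, a difference of -1.17. Its standard deviation over the 20 chromosomes was 0.22, and it was negative on each, from -1.42 on chromosome 19 to -0.39 on X. The H3K36me2 step chose these edges and is given only as a description. At 42.0% of edges the first bin outside was at or above the genome median of H3K27me3, against 49.7% for the bin next to any bin. A bin at that level was reached within 50 kb at 80.1% of edges, against 72.8% from any bin. Outside, H3K27me3 went on up slowly to 37.2 scaled reads at 145 kb, above the genome median of 29.2.

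The H3K27me3 floor of these runs was present in WT cells at the same edges. There the difference in log2 H3K27me3 between inside and outside was -1.15 in the WT library, from -1.37 to -0.30 over the 20 chromosomes. WT H3K36me2 differed in the other direction from K36M H3K36me2. It was lower inside these runs than outside, by a log2 difference of -0.45 that was negative on all 20 chromosomes (-0.55 to -0.23), with medians of 142 scaled reads in the first bin inside and 209 in the first bin outside. Near their edges, the runs that kept H3K36me2 in K36M cells thus had less WT H3K36me2 than their surroundings. Deep inside the longest runs WT H3K36me2 was higher than in the first bin inside. The surroundings of those runs alone were not measured, so their comparison with surroundings stays undecided. At 95 kb inside, from 72 edges, median WT H3K36me2 was 203 scaled reads, against 183 at 95 kb outside over all edges. In runs of 200 kb or more it was 191, against 128 in runs of 50 to 90 kb and a genome median of 96.0.

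**Figure D4:**
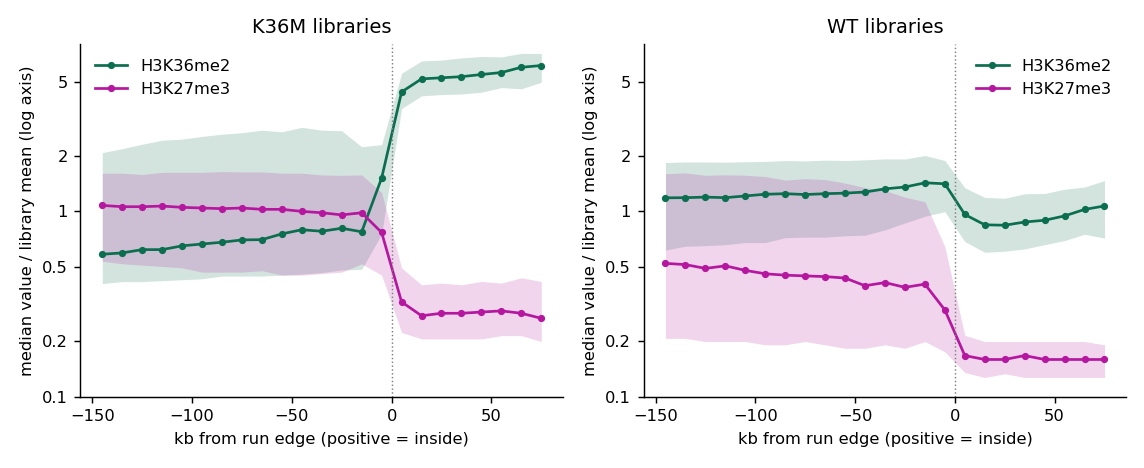
Median relative level (log axis, 1 = library mean) of H3K36me2 and H3K27me3 by distance in kb from the edges of H3K36me2-rich runs of 50 kb or more, which were defined in K36M cells; positive distances are inside, shading is the interquartile range. In K36M cells (left) H3K27me3 is at 0.274 of the mean in the second bin inside and 0.983 in the second outside, and in WT cells (right) H3K36me2 dips inside.

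Edges of H3K27me3-rich runs were less marked in the other mark. Over 1990 edges, the mean log2 H3K36me2 was -0.77 inside and -0.41 outside, a difference of -0.37 with a range of -0.59 to -0.10 over chromosomes. The median of H3K36me2 was 6.94 scaled reads in the first bin inside and 6.71 in the first bin outside. By the leaning classes, 24.0% of the borders of H3K36me2-leaning stretches in K36M cells passed directly to a bin leaning to H3K27me3, against 9.40% in WT cells. The H3K27me3-leaning class itself held 47.2% of bins in K36M cells and 24.1% in WT cells, and the border shares were not adjusted for this.

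Averaged over wider windows, the marks went together. Over the 19 autosomes and X, rho between the marks in K36M cells was 0.05 for 10 kb bins, 0.15 for means of 100 kb, 0.41 for 1000 kb and 0.49 for 5000 kb. In WT cells the values were 0.10, 0.16, 0.35 and 0.43, so wide windows with more of one mark had more of the other in both lines. On X alone rho in K36M cells was between 0.61 and 0.76 at every width from 10 to 5000 kb. Against the local mean of 1000 kb, the relation between 10 kb bins was negative, at the -0.34 given above. Of 2559 windows of 1000 kb, 1584 (61.9%) held bins of both rich kinds, 198 held only H3K36me2-rich bins, 255 only H3K27me3-rich bins and 522 (20.4%) neither. Windows share read coverage across marks, and this was not corrected for.

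Chromosomes differed in how much residual H3K36me2 they kept. Among autosomes, chromosome 11 had the largest share of H3K36me2-rich bins, 15.4%, and chromosome 3 the smallest, 7.11%, where 10.0% of all bins were rich. Median H3K36me2 was highest on chromosome 19, at 7.33 scaled reads, and lowest on chromosomes 3, 5 and 6, at 5.15, with 94 and 66 reads in the median bin. For H3K27me3 the autosomal medians ran from 22.4 on chromosome 5 to 36.3 on chromosome 13, and the share of rich bins from 3.61% on chromosome 7 to 14.7% on chromosome 19. Autosomes with more H3K36me2-rich bins did not have fewer H3K27me3-rich bins, with a rho of 0.52 between the shares across the 19 autosomes. The median log2 ratio of H3K36me2 over H3K27me3 ran from -1.08 on chromosome 16 to -0.75 on chromosome 17.

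The rank correlation between the marks varied with the amount of residual H3K36me2. It was lowest on chromosome 11, at -0.32, and highest among autosomes on chromosome 14, at 0.21, and across the 19 autosomes it had a rho of -0.83 with the share of H3K36me2-rich bins. These are descriptions over chromosomes of 1 pair of libraries. The rho of -0.83 was not independent of the hump described above. With a larger share of H3K36me2-rich bins, a chromosome has more bins from the upper part of H3K36me2, where the marks were negatively related. How much of the relation came from this was not tested. The rank correlation was lower in K36M cells than in WT cells on 17 of 20 chromosomes, among them chromosome 11 (0.01 in WT cells). The exceptions were chromosomes 3, 13 and 15.

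On X, H3K36me2-rich bins had middling rather than low H3K27me3. X had few of them, 656 or 4.22% of its bins, and they had a median of 44.5 scaled reads of H3K27me3 (interquartile range 30.6 to 54.6), against 40.7 in the rest of X. On autosomes the medians were 10.3 (7.08 to 15.3) in H3K36me2-rich bins and 31.6 in the rest, and H3K27me3 was 2.76-fold to 3.72-fold lower in the rich bins of each of the 19. The log2 ratio of rich over other bins was 0.13 on X and -1.61 on autosomes. On X it was -0.032 with the top 5% of bins, 0.00 without bins that had few reads in all libraries, and 0.32 with the top 20%, while on autosomes it ran from -1.73 to -1.13 under such changes. Of H3K36me2-rich bins, 78.0% on X and 5.06% on autosomes were at or above the genome median of H3K27me3, where 64.2% of other bins on X and 54.6% on autosomes were. H3K27me3-rich bins were fewer among them than in the rest of each: 7.93% (5.98% to 10.3%) of H3K36me2-rich bins on X were H3K27me3-rich, against 21.0% of other X bins, and on autosomes 0.422% (0.344% to 0.512%), against 10.5%. Residual H3K36me2 in these rich bins had medians of 62.2 scaled reads on X and 73.2 on autosomes.

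The longer runs on X were also less depleted of H3K27me3 than those on autosomes, but lay slightly below the level of X. Of its 43 H3K36me2-rich runs of 50 kb or more, 10 had a mean H3K27me3 below the genome median, against 1713 of 1736 on autosomes (98.7%). Run means of H3K27me3 on X went from 11.9 to 64.0 scaled reads with a median of 38.4, against a median of 40.7 over all bins of X, and at their edges log2 H3K27me3 was lower inside than outside by the -0.39 given above. The autosomal median of run means was 10.6. In WT cells, too, the H3K36me2-rich bins of X had much H3K27me3, a median of 22.8 scaled reads, against 2.29 on autosomes. H3K27me3 on X did peak below the top of H3K36me2, at 66.4 scaled reads in the seventh decile of K36M H3K36me2 against 44.5 in the highest, but the fall was smaller than on autosomes, where these were 49.3 and 10.3. The rank correlation over X was 0.61 in all bins, -0.19 within its H3K36me2-rich bins and 0.65 in the rest, against -0.21 and 0.29 in the 2 classes on autosomes. The longest stretch without an H3K36me2-rich bin, chosen after its length was seen, was also on X, at 110300001 to 130120000, where 1793 bins over 19.8 Mb had medians of 4.21 scaled reads of H3K36me2 and 15.3 of H3K27me3 in K36M cells, both below the medians of X of 5.30 and 40.7. X leaned to H3K27me3 in 63.5% of its bins and to H3K36me2 in 4.57%, where 47.2% and 16.1% of all bins did so, and its median log2 ratio of -1.36 lay 0.45 below that of the autosomes.

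**Figure D5:**
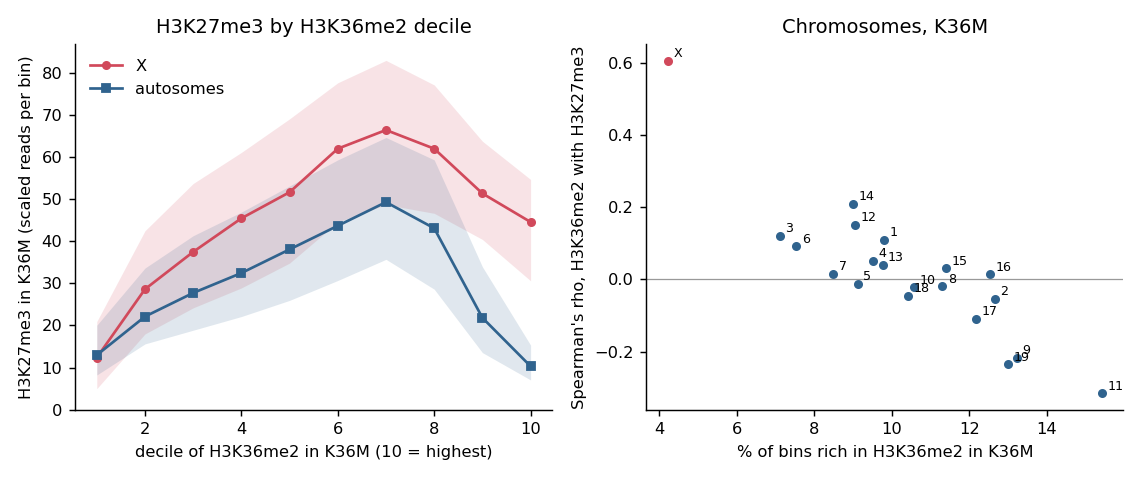
Left: median H3K27me3 in scaled reads per bin by decile of H3K36me2 in K36M cells, on X (circles) and autosomes (squares), shading being the interquartile range; in the top decile X has 44.5 and autosomes 10.3. Right: Spearman's rho between the marks against the share of H3K36me2-rich bins, 1 point per chromosome, with chromosome 11 lowest at -0.32.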

How the data were processed

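Per the labels' protocols, the Drosophila S2 spike-in amounted to 5% of the mouse material and went in ahead of the antibodies; another label gives equal parts of cells, and the labels do not settle which. Per the submitters' processing notes, the aligner was Bowtie (version 1.0.0) and the builds were mm9 and dm6. For read filters, counting and the factor, nothing is stated: not given in the sources used here. For each interval the authors deposited a scaled signal in each of 4 libraries. In each library every value (100%) divided by the smallest value above 0 gave a whole number to within 0.01 (0.078 for H3K36me2 and 0.295 for H3K27me3 in K36M, 0.636 and 0.109 in WT), so reads were recovered by division. No count test was run, since groups had 1 library. No mouse genome or annotation of this build was used here, so regions are given by 1-based position and no sequence is shown.

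Groups came from sample titles; inputs, whose titles name H3.3 and genotypes H3.1, were not analysed here. Rows of other widths (4659) and 10 kb rows without signal (322) were left out, and runs end at any missing bin. Bins on the 19 autosomes numbered 231965, on X 15539, on Y 164 and on unplaced contigs 1277. Named regions are, per mark in K36M, the 6 runs of rich bins of 50 kb or more with the highest mean and the 6 longest, the 4 longest runs rich in both, and the highest bin of each mark. The measures and classes were chosen with earlier results of these data known. The run caller and the leaning rule were tested on simulated data, with strong planted runs on an even background. The rule that calls the top 10% of bins rich was not tested in this way. Software was scipy 1.17.1, pandas 2.3.3 and numpy 2.4.6 under Python 3.11.15, with matplotlib 3.10.9 for plots.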

Additional observations from a re-analysis of the deposited data

Results flagged for a closer look

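On 6 chromosomes the rank correlation between H3K36me2 and H3K27me3 over bins had opposite signs in K36M and WT cells; this difference between the lines was not tested, and most of the values lay near 0. It was -0.32 in K36M and 0.01 in WT on chromosome 11, -0.11 and 0.08 on chromosome 17, -0.05 and 0.14 on chromosome 18, -0.02 and 0.08 on chromosome 8, and -0.01 and 0.12 on chromosome 5. Chromosome 13 went the other way, with 0.04 in K36M and -0.10 in WT.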

How the results depend on the processing

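The 14 results were recomputed in 85 alternatives, of which 48 were close to the reported value (within its spread or 1.5 times a count), 33 moved further and 4 reversed; 16 were chosen after seeing the data. The spread was the standard deviation over chromosomes, or the binomial interval for shares, taken over bins for shares of bins and over reads for shares of reads. The rank correlation over all bins (0.06) reversed to -0.19 as Pearson's r of log2 values, to -0.34 against the 1000 kb local mean and to -0.070 without bins with few reads. In the upper 20% of H3K36me2 rho was -0.54. The share of H3K36me2-rich bins rich in H3K27me3 was 0.530% with the top 5% (5.05% of all bins), 5.44% with the top 20% (20.0% of all bins), 0.431% on autosomes, 0.438% without extreme bins and 0.902% for 5-bin averages. Bins leaning to H3K27me3 numbered 23279 at 4-fold, 64846 with a pseudocount of 0.5 and 29659 divided by the median; the count leaning to H3K36me2 stayed within 1.5 times under each of its 10 alternatives. H3K36me2-rich runs of 50 kb or more numbered 734 with the top 5% and 3714 with the top 20%; H3K27me3-rich runs 333, 2692, 1745 with 1-bin gaps and 1715 for 5-bin averages. X minus autosomes in log2 ratio was -0.30 with pseudocount 0.5, -0.62 after background subtraction and -0.74 from medians. The top 1% of bins held 10.5% of H3K36me2 reads, and 12.4%, 10.3%, 8.44%, 10.2% and 9.15% after background subtraction, on autosomes, without extreme bins, without bins with few reads and for 5-bin averages. For H3K27me3 it held 4.59%, and 5.40%, 4.65%, 3.23%, 4.50% and 4.03% under these. The log2 ratio of H3K27me3 in H3K36me2-rich over other bins reversed on X to -0.032 (top 5%) and moved to 0.32 (top 20%) and 0.00 (without bins with few reads); on autosomes it was -1.73, -1.21 and, for 5-bin averages, -1.13. The step of H3K27me3 at H3K36me2-rich edges stayed between -1.27 and -1.01. The cause of these shifts was not tested. No paired analysis was possible because each group has 1 library, and none could be left out. Depth limits single bins: H3K36me2-rich bins held a median of 35 H3K27me3 reads, a half-width of 33.1%.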
